A study of Homo sapiens with 2 samples.

Results

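Chromosome 8 carried 394 of the 14471 peaks that the authors deposited for ZFX in DAOY cells, an established human medulloblastoma line. They were chosen by position alone and divided at the centromere of the hg19 build (43.84 to 46.84 Mb) and at the start of the last long-arm band, 8q24.3 (139.9 Mb). The short arm (8p) held 81 peaks, the long arm before 8q24.3 held 234, band 8q24.3 held 79, and none lay in the centromere interval. The study held 2 samples of these cells, sheared chromatin precipitated with a rabbit polyclonal antibody against ZFX and the same kind of chromatin without precipitation (input). Peaks come from the precipitated sample, which is 1 library. Reads of the input were not analysed here. No replicate check exists for any value, no test between parts was run, and differences are given as counts, ranks and intervals. The intervals (95%) cover the counting of peaks only and treat peaks as independent, which neighbouring peaks may not be. The depth of sequencing is unknown, which leaves the precision of any one peak unknown too. The number of copies of each arm of chromosome 8 in this line was not measured here, so more copies and more binding cannot be told apart.

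ZFX is a zinc finger transcription factor that is known to bind mostly at promoters within CpG islands, short stretches rich in C and G at the start of many genes. Chromosomes are divided into cytogenetic bands by Giemsa stain, and the light bands are known to hold more genes than the dark ones. The end of the short arm of chromosome 8 carries gene families in which some members are near-identical copies, among them the defensins, which are antimicrobial peptides. The long arm carries the oncogene MYC in a region with few other protein-coding genes, and its last band is densely filled with genes.

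Peaks were crowded at the end of the long arm and thin on the short arm. Band 8q24.3 made up 4.42% of the length of chromosome 8 and held 20.1% of its peaks, whereas 8p made up 29.95% of the length and held 20.6%. Between the outermost peaks of each part there were 16.4 peaks per Mb in 8q24.3 (13.0 to 20.5), 2.58 in the rest of the long arm (2.26 to 2.94) and 1.90 in 8p (1.51 to 2.36). The other 21 autosomes together had 5.27 peaks per Mb. Band 8q24.3 therefore had 6.36 times the density of the rest of 8q (interval 4.86 to 8.24), and 8p had 0.736 times that density (0.564 to 0.951). The lower density of 8p was not firm: the interval included 1 with peaks above the median score (0.470 to 1.04), with close peaks joined (0.588 to 1.02) and without band 8p23.1 (0.611 to 1.05). The first 1.57 Mb of 8q24.3 held no peak and is outside its span. Over the whole assembled band the density was 12.2 peaks per Mb, and the ratio to the rest of 8q was then 4.86.

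**Figure D1:**
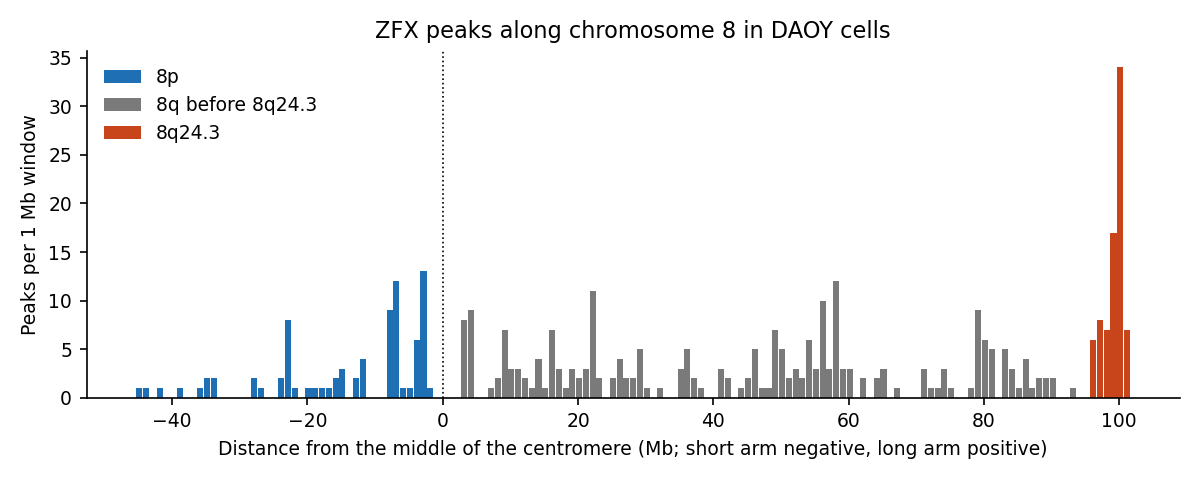
Number of ZFX peaks in each window of 1 Mb along chromosome 8, plotted against the distance from the middle of the centromere in Mb, with bars coloured by part. The tallest bar, 34 peaks, stands in 8q24.3, and the outer part of the short arm has windows with few or no peaks.

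The shortage on 8p lay in its outer and middle sections and not beside the centromere. The bands 8p23.3 to 8p22 at the end of the arm held 12 peaks in 19 Mb, or 0.632 peaks per Mb (0.326 to 1.10). The bands 8p21.3 to 8p12 in the middle held 26 peaks in 17.5 Mb, or 1.49 per Mb (0.971 to 2.18). The 3 bands nearest the centromere, 8p11.23 to 8p11.21, held 42 peaks in 6.6 Mb, or 6.36 per Mb (4.59 to 8.60). These 3 bands were 15.1% of the length of 8p and contained 51.9% of its peaks. The remaining peak of the arm lay in 8p11.1, the last band of the short arm, 708 kb before the centromere interval used here. This division of the arm was made after the values had been seen.

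Each of the 12 outermost peaks of 8p stood alone, the closest pair 338 kb apart. The first peak of the chromosome lay at 495690 to 496059 with a score of 80.4. Scores of 3 of the 12 were above 300, at 9413410 to 9414277 (316.9), 11141901 to 11142467 (388.5) and 17779909 to 17780282 (309.0). The other 9 scored between 60.3 and 112.5. The longest stretch of chromosome 8 without a peak, 5.44 Mb, ran from 11660065 to 17104459, from band 8p23.1 into 8p22.

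The same starting stretches of other chromosomes were fuller. In the first 20 Mb, chromosome 8 had 12 peaks, and the 16 other autosomes with an assembled short arm had 45 (chromosome 18) to 479 (chromosome 19), with a median of 105.5. Chromosome 18 has a short arm of under 20 Mb, so its count reaches past the centromere. In the first 6.46 Mb, the length of 8q24.3, chromosome 8 had 3 peaks and the same 16 autosomes had 11 to 192, with a median of 49.5. The median score of the 12 peaks, 79.5, was also below that of each of the 16 other starting stretches, which lay between 85.6 and 138.2. Over the first 6.46 Mb the median score of the 3 peaks was 80.4, below that of 15 of the 16 others.

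**Figure D2:**
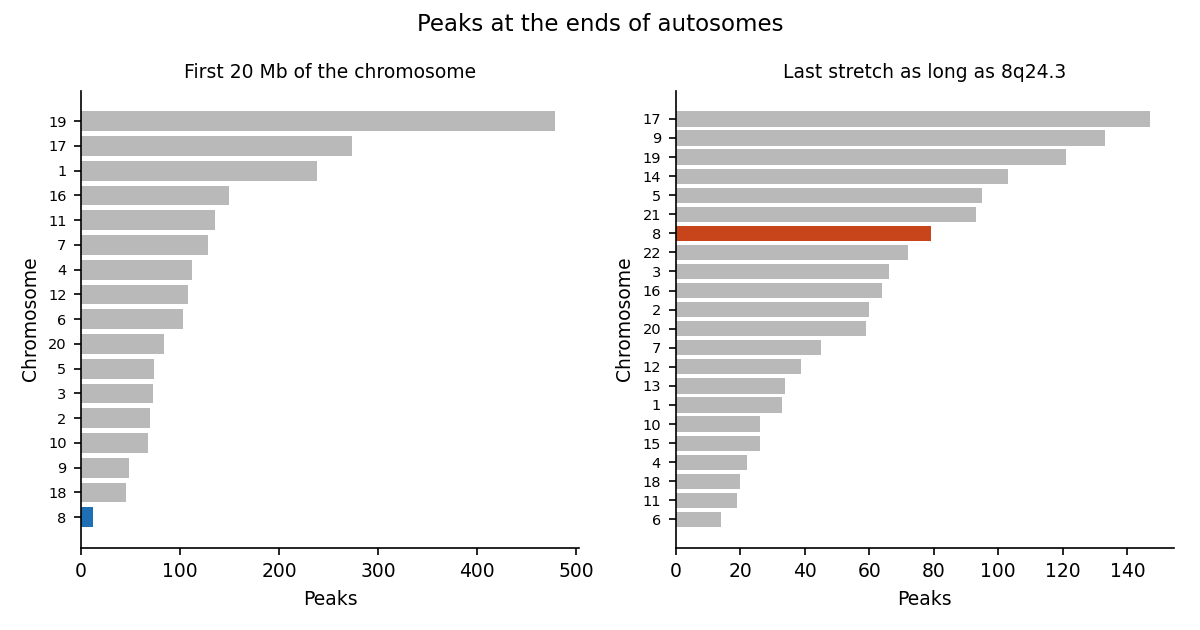
Number of peaks in the first 20 Mb of the 17 autosomes with an assembled short arm (left) and in the last 6.46 Mb of all 22 autosomes (right), 1 bar per chromosome with chromosome 8 in colour. Chromosome 8 is lowest on the left with 12 peaks and stands seventh on the right with 79.

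Band 8q24.3 was rich in peaks, but other long-arm ends were richer. Over the last 6.46 Mb of the 22 autosomes, 6 had more peaks than the 79 of chromosome 8 and 15 had fewer. The range over the 21 others was 14 on chromosome 6 to 147 on chromosome 17, with a median of 59. Within 8q24.3 the peaks lay towards the chromosome end. Its first 3.23 Mb held 14 peaks and its last 3.23 Mb held 65, or 4.33 against 20.1 per Mb. The window from 145 to 146 Mb held 34 peaks, 43.0% of the band, and the window before it held 17. On the other autosomes 15 of 2652 windows of 1 Mb held 34 peaks or more. Among the 147 windows of chromosome 8 only that from 145 to 146 Mb did. The last peak of the chromosome, at 146277774 to 146278304 with a score of 315.0, lay 0.0857 Mb from the end of the assembled sequence.

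The long arm before 8q24.3 alternated between filled and empty bands. The densest bands were 8q13.1 with 14 peaks (7 per Mb), 8q22.3 with 26 (5.65 per Mb) and 8q22.2 with 14 (5.38 per Mb). Bands 8q22.2 and 8q22.3 lie side by side, and their median scores of 158.2 and 144.4 were above the median of 100.9 for this part of the arm. Band 8q13.1 was dense with low scores, at a median of 77.2. Bands 8q24.12 and 8q24.23 held 1 peak each in 3.3 and 3.5 Mb, and bands 8q11.22 and 8q21.12 held none. A stretch of 4.61 Mb without a peak ran from 112052529 to 116660507, from 8q23.2 into 8q23.3. The 3 peaks of 8q23.3 had a median score of 54.7, close to 50, the lowest score of the list. A further peak-free stretch of 3.32 Mb followed the 17 peaks of 8q11.21, which all lay between the centromere and 49495781.

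**Figure D3:**
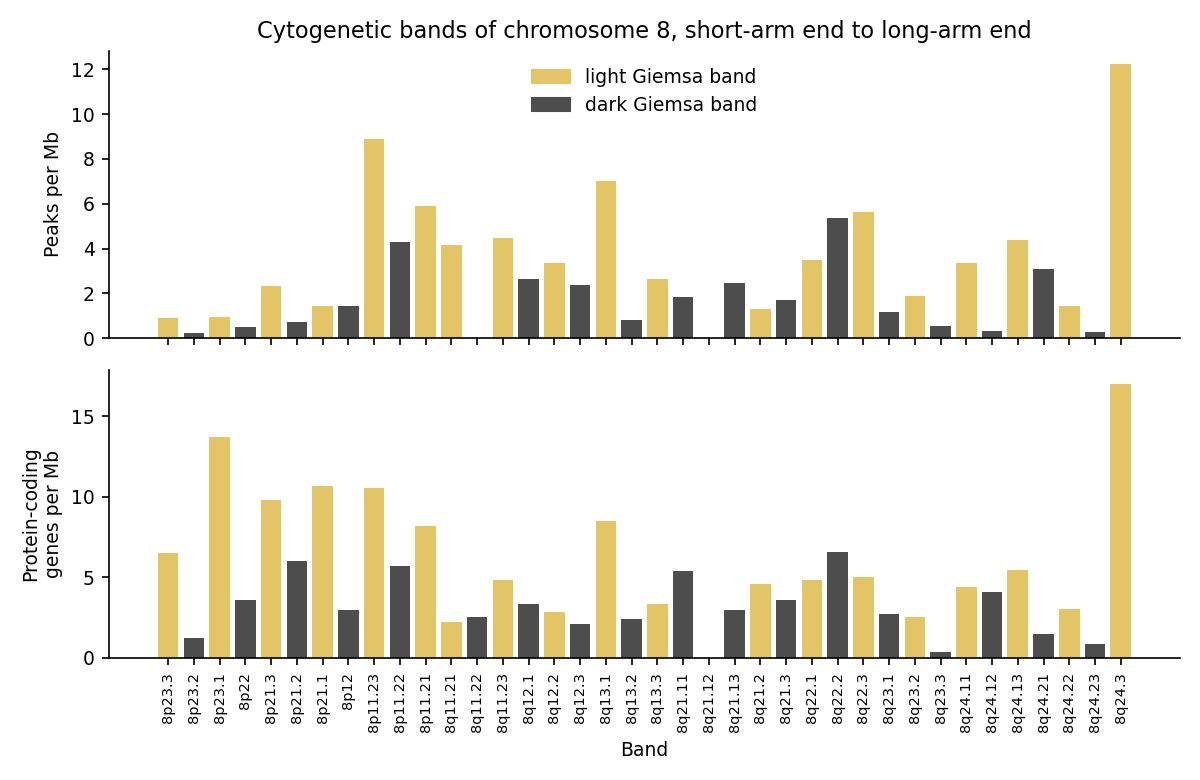
Peaks per Mb (top, bands on hg19) and protein-coding genes per Mb (bottom, same bands on GRCh38) for the bands of chromosome 8 outside the centromere, ordered from the end of the short arm to the end of the long arm and coloured by Giemsa stain. Band 8q24.3 is highest in both, and 8p23.1 has 13.7 genes but 0.923 peaks per Mb. Of the bands shown, 8q13.3, 8q21.11, 8q21.12 and 8q21.13 have bounds that moved between the builds.

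Measured against genes instead of length, 8q24.3 did not stand out and 8p did. Gene positions were at hand on GRCh38 only, so peaks and genes were counted in the same named bands, each on its own build, and no peak was tied to a gene. By this count the 79 peaks of 8q24.3 stood against 106 protein-coding genes, a rate of 74.5 per 100 genes (59.0 to 92.9). The rest of 8q had 234 peaks and 317 genes, or 73.8 per 100 genes (64.7 to 83.9). The ratio of these 2 rates was 1.01 (0.772 to 1.31), and the other autosomes together had 75.4 peaks per 100 genes. Per assembled Mb, 8q24.3 and the rest of the arm had 12.2 against 2.51 peaks on hg19, and on GRCh38 16.99 against 3.46 genes.

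On 8p there were 27.7 peaks per 100 genes (22.03 to 34.5), 0.376 times the rate of 8q before 8q24.3 (0.288 to 0.486). This was the lowest rate among the 39 autosomal arms compared. The 37 arms of the other autosomes had 40.1 (4q) to 124.5 (7p) peaks per 100 genes, with a median of 75.4. The gene density of 8p was ordinary, 6.77 genes per Mb, which ranked it 19th of the 39 arms. For its peaks per Mb it ranked 37th. Rates rose along 8p from 9.09 peaks per 100 genes in 8p23.3 to 8p22, through 24.8 in 8p21.3 to 8p12, to 77.8 in 8p11.23 to 8p11.21.

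**Figure D4:**
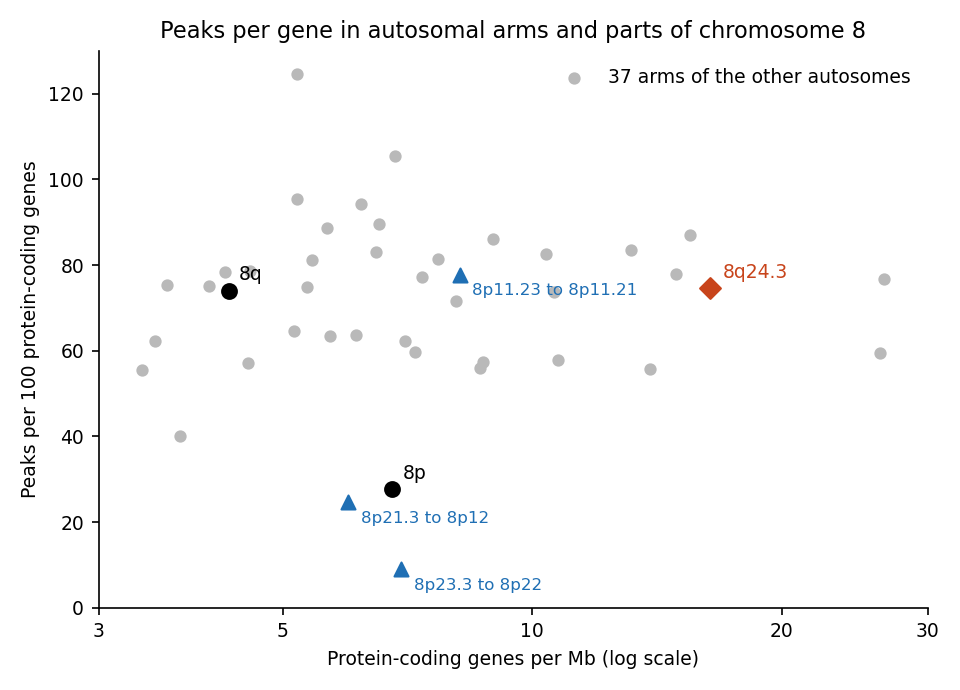
Peaks per 100 protein-coding genes against protein-coding genes per Mb (log scale), with 1 grey point for each of 37 arms of the other autosomes, black points for 8p and 8q, triangles for 3 sections of 8p and a diamond for 8q24.3. The outer and the middle section of 8p, at 9.09 and 24.8, lie below every arm of the other autosomes, and 8p11.23 to 8p11.21, 8q and 8q24.3 lie between 74.0 and 77.8.

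Many genes at the end of 8p belong to families with near-identical copies, and these genes enter its rate. In band 8p23.1 the gene table lists 25 defensin genes, 19 genes of the FAM90A family and 6 of the USP17L family, whose products are deubiquitinating enzymes. Short reads from near-identical copies are hard to place, and no source used here says how such reads were treated. Without 58 genes of these and similar families, 8p had 34.6 peaks per 100 genes (27.5 to 43.0) and 8p23.3 to 8p22 had 16.2 (8.38 to 28.3). Families were recognised by symbol and removed whole, including any members without a near-identical copy. With the same families removed from all arms, 8p was again the lowest of 39, and the other arms had 40.1 or more. No genes were removed from 8p21.3 to 8p12, which stayed at 24.8 (16.2 to 36.3). Among the 126 autosomal bands with 40 genes or more and a like length in both builds, 8p23.1 had the second lowest rate (6 peaks for 89 genes) and 8p21.3 the fourth lowest (10 peaks for 42 genes), with all genes counted. Without these families 8p23.1 had 32 genes and 18.75 peaks per 100 genes, too few genes to enter this set. Band 8p21.3 then stood at rank 3 from the lowest of 119 bands. With all genes the median over the 126 bands was 70.8, and 8q24.3 stood at rank 72 from the lowest.

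Genes of known function were located by band, against the 40.8% of the protein-coding genes of chromosome 8 that lie on 8p, 44.3% on 8q before 8q24.3 and 14.8% in 8q24.3. Of the genes in lists chosen for this chromosome, DNA replication and repair had 3 of 14 on 8p (ESCO2 for sister chromatid cohesion, the helicase gene WRN and the polymerase gene POLB), 9 on 8q before 8q24.3 (among them MCM4 of the replicative helicase and NBN of the double-strand break sensor) and 2 in 8q24.3 (TONSL and the helicase gene RECQL4). Of 12 translation genes, 8p holds only EIF4EBP1, which encodes an inhibitor of cap-dependent translation, 8q24.3 holds EEF1D and RPL8, and 9 such as RPL7, RPS20 and PABPC1 lie between. Of 15 growth signalling genes, 8 lie on 8p, including the receptor gene FGFR1 and the growth factor gene NRG1. Band 8q24.3 also holds all 9 genes of chromosome 8 recognised by symbol as LY6 and SLURP family, which encode small surface and secreted proteins. Of the 20 zinc finger genes of chromosome 8 that were recognised by symbol, it holds 10. No count of members with a peak is given, because no gene position on hg19 was used.

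Band 8q24.21, known to carry MYC, had more peaks per gene than the arm as a whole. It held 13 peaks and 6 protein-coding genes. Scores of these peaks were low, at a median of 70.7 and at most 260.4. Of the 13, 8 lay between 128806355 and 129121821 and 5 between 130951705 and 131456409. With 6 genes the rate of 217 per 100 genes rests on very few genes, and noncoding genes are not counted in it. Band 8q11.21 was alike in this respect, with 17 peaks and 9 genes. Further bands of 8q were also above the arm, among them 8q23.3 (150 per 100 genes), 8q22.3 (113) and 8q12.3 (112.5). No peak of 8q24.21 was tied to MYC or to any other gene.

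Across bands, correlations between densities of peaks and genes were higher on 8q than on 8p, which has only 11 bands. Over 23 bands of 8q with like lengths in both builds, peaks per Mb and genes per Mb had a Pearson's r of 0.883 and a Spearman's rho of 0.694. Without 8q24.3 the r was 0.732 and the rho 0.650 (22 bands). Over the 11 bands of 8p the r was 0.348 and the rho 0.474 with all genes. Without the gene families with near-identical copies they were 0.588 and 0.624. Over 691 bands of the other autosomes they were 0.688 and 0.840. These values describe bands of 1 library, which share its depth, and neither they nor the differences between arms were tested.

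Light Giemsa bands of chromosome 8 held 275 peaks at 4.15 per Mb, and dark bands held 118 at 1.57 per Mb, a ratio of 2.64. On each of the other 21 autosomes light bands also had more peaks per Mb than dark ones, with ratios of 1.18 to 3.45 and a median of 1.93. Without 8q24.3 the ratio of chromosome 8 was 2.09 (1.65 to 2.64). On 8p, light bands had 2.86 and dark bands 1.02 peaks per Mb. Relative to genes the order on 8p turned on the gene families with near-identical copies, whose genes on 8p all lie in light bands. With all genes the light and dark bands had 26.9 and 28.9 peaks per 100 genes, and without these families 37.3 and 28.9. Intervals of the ratio included 1 in both cases (0.568 to 1.57 and 0.787 to 2.18).

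The score of a peak is the authors' value and its unit is not stated. Medians differed little between the parts of chromosome 8: 94.5 on 8p (77.0 to 123.1), 100.9 on 8q before 8q24.3 (90.2 to 118.0) and 98.0 in 8q24.3 (82.1 to 114.3). The 3 intervals overlapped, and the other autosomes together had a median of 109.3. Of the 37 arms of the other autosomes, 32 had a higher median score than 8q24.3 and 4 a lower one. The median of the list was exceeded by 35 peaks of 8p (43.2%), 111 of the rest of 8q (47.4%) and 37 of 8q24.3 (46.8%), against 50.2% of the 13885 peaks of the other autosomes. The exact interval of each of the 3 shares includes that value.

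High scores were scarcer on chromosome 8 as a whole. Of its peaks, 19 (4.82%, exact interval 2.93% to 7.43%) were in the top 10% of scores of the list, against 10.2% on the other autosomes. Shares on the other 21 autosomes ran from 5.72% to 14.0%, all above that of chromosome 8. By part the counts were 4 of 81 on 8p (4.94%, 1.36% to 12.2%), 12 of 234 on 8q before 8q24.3 (5.13%, 2.68% to 8.79%) and 3 of 79 in 8q24.3 (3.797%, 0.790% to 10.7%). The intervals of 8p and 8q24.3 include the share of the other autosomes, and that of 8q before 8q24.3 does not. On 8p all 4 lay in 8p11.23 to 8p11.21. For the top 5% of scores the count on chromosome 8 was 10 (2.54%), against 5.09% on the other autosomes, 1 of which had a lower share.

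Widths followed the same pattern. The median peak was 409 bp wide on 8p (370 to 479), 434 bp on the rest of 8q (402 to 471) and 428 bp in 8q24.3 (378 to 515), against 485 bp on the other autosomes. The interval of 8q24.3 includes that value, and those of 8p and the rest of 8q do not. Of the peaks on chromosome 8, 7 (1.78%) were in the widest 5% of the list, against 5.15% on the other autosomes. The widest peaks spanned 1198 bp on 8p, 1779 bp on the rest of 8q and 1852 bp in 8q24.3. Width rose with score in this list, so widths were also compared within 4 score classes, cut at the quartiles of the list. In the lowest class the median widths were 286 bp on 8p, 300 bp on the rest of 8q, 267.5 bp in 8q24.3 and 300 bp on the other autosomes. In the middle classes they were 348, 374, 375 and 407 bp, then 595.5, 507.5, 556 and 571 bp, in the same order. In the highest class they were 849, 667, 730.5 and 864 bp. That class has no upper limit and so does not hold scores equal, and its 8p value rests on 15 peaks (621 to 918). Its interval on the rest of 8q (632 to 723, 51 peaks) lay below that of the other autosomes (849 to 878). In the second class the interval of 8p (317 to 389) lay below that of the other autosomes (403 to 410). All other intervals of the parts overlapped that of the other autosomes in the same class.

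**Figure D5:**
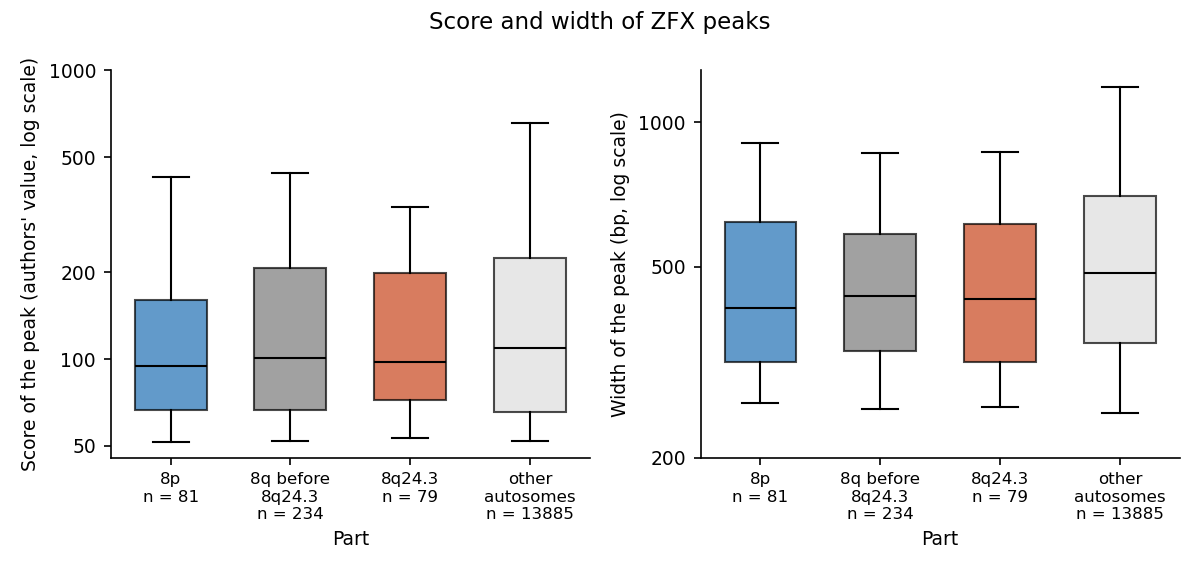
Score (left, the authors' value) and width in bp (right) of peaks in 3 parts of chromosome 8 and on the other autosomes, on log axes, with boxes over the middle 50% of peaks, a line at the median and whiskers at the 5th and 95th percentiles. The boxes of the 3 parts overlap, and the upper whiskers of the other autosomes reach higher than those of chromosome 8.

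The strongest peaks of chromosome 8 were spread over both arms. The highest score, 2349, belonged to a narrow peak of 489 bp in band 8q13.3 (chr8:70602210-70602698), whose nearest neighbour was 304 kb away. Next came a peak of 1419 bp in 8q12.1 with a score of 1453 (chr8:59571243-59572661). On 8p the highest score was 1123, for a peak of 1087 bp in 8p11.23 (chr8:38239151-38240237) with another peak 138 bp away. The strongest peak of 8q24.3 scored 1099 (chr8:141644329-141646180) and was also the widest of chromosome 8. It lay in the sparse first section of the band, 4.72 Mb from the chromosome end.

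These 4 were the only peaks of chromosome 8 that scored 1000 or more. The next 2 peaks of 8p lay in 8p11.21, at 41908698 to 41909759 (score 892.0) and 42010444 to 42011305 (score 830.1). The window from 42 to 43 Mb was also the fullest of 8p, with 13 peaks. On 8q before 8q24.3 the third was a peak of 1779 bp in 8q22.1 with a score of 894.0 (98655816 to 98657594). In 8q24.3 the next 2 scored 730.6 (146052869 to 146053645) and 571.0 (144623271 to 144624167). The window with the most peaks, 145 to 146 Mb, reached a score of only 297.2. No screen for repeated sequence was made at any of these peaks.

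Within chromosome 8, close neighbours were most frequent in 8q24.3 and least frequent on 8p. A neighbour within 1 kb was found for 13 peaks of 8p (16.0%, exact interval 8.83% to 25.9%), 64 of the rest of 8q (27.4%, 21.7% to 33.5%) and 34 of 8q24.3 (43.0%, 31.9% to 54.7%), against 32.3% on the other autosomes. Over the 37 arms of the other autosomes this share ran from 22.3% (20p) to 39.8% (17p), so 8p lay below and 8q24.3 above all of them. An arm is longer than 8q24.3, so its share averages over dense and sparse regions. Among the long-arm ends of equal length on the 21 other autosomes, 6 had a higher share than 8q24.3 and 15 a lower one, with a range of 7.69% to 48.3%. The median distance between neighbours was 136 kb on 8p, 149 kb on the rest of 8q and 19.8 kb in 8q24.3, so 8p and the rest of 8q differed little in this measure. None of the 12 peaks of 8p23.3 to 8p22 had such a neighbour, compared with 9 of 42 in 8p11.23 to 8p11.21.

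Joining peaks at most 1 kb apart turned 8q24.3 from 79 peaks into 60 regions, the rest of 8q from 234 into 202 and 8p from 81 into 74. On the long arm before 8q24.3 no region held more than 2 peaks, and 32 of 202 held 2. Of these pairs, 6 lay in 8q11.21 and 6 in 8q22.3. Regions of 3 or more peaks numbered 3 of 60 in 8q24.3 and 1 of 74 on 8p. On the other autosomes 1784 of 11468 regions held 2 peaks and 283 held 3 or more, at most 7. The region with the most peaks on chromosome 8, 4, lay in 8q24.3 at 145010727 to 145014270, with scores of 91.0, 95.3, 171.4 and 84.1. On 8p the largest held 3 peaks in 8p11.22 at 38793861 to 38795968, with scores of 61.6 to 73.3. Close peaks of 8q24.3 had a median score of 102.3 (72.9 to 180.5) and isolated ones 98.0 (79.6 to 151.1), intervals that overlapped.

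The bounds that divided the chromosome fell in stretches without peaks. The last peak before the centromere lay 708 kb from it with a score of 63.7, and the first on the long arm lay 1.33 Mb beyond its far side with a score of 291.5. Before the start of 8q24.3 the nearest peak was 1.12 Mb away with a score of 61.5, and the nearest after it was 1.57 Mb away with a score of 50.7. Stretches of over 1 Mb without a peak made up 13 of 80 gaps on 8p (16.3%), 25 of 233 on the rest of 8q (10.7%), none of 78 in 8q24.3 and 3.73% on the other autosomes. The longest in 8q24.3 between its peaks was 0.852 Mb.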

How the data were processed

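The assay was ChIP-seq for ZFX in DAOY cells, with 2 samples of 1 library each, grouped by the antibody in the labels. Per the submitters' processing notes, Bowtie2 2.0.0 and hg19 were used, without their roles. Peak names in the deposited file carry the name MACS; its version, threshold and control are not stated in any source used here. The score is the value the authors deposited for each peak, without a stated unit. Starts were taken as counted from 0 and are printed counted from 1. Peaks were placed by their midpoint. Bands and chromosome lengths came from circlize 0.4.16 and GenomeInfoDb 1.38.1 (R 4.3.3), protein-coding genes from a RefSeq table on GRCh38, by midpoint. Arms of other autosomes were divided where their bands change arm, and the short arms of chromosomes 13, 14, 15, 21 and 22 were left out. Intervals are exact: Poisson for densities, Clopper-Pearson for shares and ratios, and order statistics for medians. Those for densities, ratios of densities and medians were checked on simulated lists of independent peaks. That check divided by the known length of each part. The reported densities and their ratios divide by the span between outermost peaks, which depends on the peaks themselves, so the check does not cover that choice. It does not cover peaks that cluster either, and intervals of shares were not checked. Counts and intervals were computed in Python 3.11.15 with scipy 1.17.1, pandas 2.3.3 and numpy 2.4.6, and plots were drawn with matplotlib 3.10.9.

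The parts, the gene lists and the rule for named regions were chosen with earlier results of these data known. The rule named, in each part, the 3 highest scores, the widest peak, the richest 1 Mb window, the longest peak-free stretch and the run with the most peaks, and in 8q24.3 the top 5% of scores. Single bands, sections of 8p and peaks of its first 20 Mb were chosen after their values had been seen. Gene lists were to be tied to peaks only with gene positions on hg19, which were not used here, so they are given by location alone.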

Additional observations from a re-analysis of the deposited data

How the results depend on the processing

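For 28 results 77 alternatives were run, 13 of them chosen after the data had been seen. Of these, 43 stayed within the interval of the main value (ranks within 1.5 times), 33 moved and 1 reversed. Peaks above the median score lower densities and raise medians by construction: densities became 0.897, 1.27 and 7.78 peaks per Mb on 8p, on 8q before 8q24.3 and in 8q24.3, rates 11.99, 35.0 and 34.9 per 100 genes, median scores 188.1, 214.2 and 209.0, median widths 622, 598 and 622 bp, and shares with a neighbour 5.71%, 12.6% and 21.6%, in that order. With peaks joined, 8q before 8q24.3 had 2.23 regions per Mb and 63.7 per 100 genes, and 8q24.3 had 12.5 and 56.6. By assembled length 8q24.3 had 12.2 peaks per Mb and 4.86 times the density of the rest of 8q, and without its richest window 11.8 and 4.57 times. Moving its start by 1 Mb could not change densities over the span between outermost peaks, because no peak lay there. These alternatives are counted among the 43, and the move was not run with assembled length. Without 8p11.23 to 8p11.21, 8p had 1.08 peaks per Mb, 0.419 times the rest of 8q, and 16.4 per 100 genes. Without the gene families with near-identical copies 8p had 34.6 per 100 genes, and the r and rho over its bands were 0.588 and 0.624. Band 8p23.1 then had 18.75 per 100 genes, and the light to dark ratio per gene on 8p turned from 0.931 to 1.29. A distance of 5 kb gave 34.2% of peaks with a neighbour on 8q before 8q24.3. Band 8q24.3 stood 7th of 22 long-arm ends, 3rd over the last 3 Mb and 10th over the last 10 Mb. The first 20 Mb of 8p stood lowest of 17 starting stretches in all 5 alternatives, of which the first 30 Mb reach past some short arms. The light to dark ratio was 2.09 without 8q24.3. No paired analysis was possible because the 2 samples are different kinds of library and 1 has no peaks analysed here. Depth is unknown, so missed weak sites cannot be counted.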
